A study of Homo sapiens with 2 samples.

Results

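Aminoacyl-tRNA synthetases join each amino acid to its transfer RNA, and a human cell keeps separate sets of them for the cytosol and for the mitochondria. The genes described here are 39 members of this system, chosen by gene symbol and found in the deposited tables among 28117 named genes. They are 19 cytosolic synthetase genes, with GARS1 and KARS1 counted among them although each serves both compartments, 16 mitochondrial synthetase genes, the cytosolic paralogue TARS3, and AIMP1, AIMP2 and EEF1E1, which encode scaffold proteins of the multisynthetase complex. All 39 had a mean CPM (a count relative to its scaled library total) of 1 or more over both libraries, the minimum used for counts over genes.

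The study sequenced poly-A RNA of HEK293T, a transformed human embryonic kidney cell line. The control library came from cells given a non-targeting RNA (GL2), and the library called here the tRF library from cells given a mimetic of tRF-3004b, a transfer RNA fragment. Both RNAs carried a 5′ phosphate, were reverse transfected at 500 nM with Lipofectamine RNAiMax, and cells were collected 120 h later. There was 1 library per group, so every difference below compares 2 libraries, carries no replicate check and no p-value, and has a 95% interval for counting error only.

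Cytosolic synthetases supply the ribosomes of the cytosol, and the mitochondrial enzymes, encoded in the nucleus and imported, supply the ribosomes that make the mitochondrially encoded respiratory chain proteins. Several cytosolic enzymes are bound in a multisynthetase complex held together by the 3 scaffold proteins. Many cytosolic synthetase genes are known targets of ATF4, the transcription factor of the amino acid response, which with C/EBP partners binds a composite promoter element. In bulk RNA, a change in RNA per cell and a change in the number of cells that express a gene cannot be told apart.

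The transfected RNAs are shown with bases 2 to 8, the seed by which a microRNA-like RNA pairs with targets, in capitals.
tRF-3004b: uCAAAUCUcgguggaaccucca
control: cGUACGCGgaauacuucgauu
The complement of the tRF-3004b seed (AGATTTG) was found in the 3′ UTR of 1 of the 39 members, VARS2, the mitochondrial valine enzyme. It was found in 1829 of 12211 genes searched (15.0%), whose median 3′ UTR was 1087 bases against 406 bases for the members. The VARS2 site, in capitals in its 3′ UTR (GENCODE release 29, GRCh38), starts at base 54 of 246.
VARS2: tgaggacaaacAGATTTGtcagctgtcag

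Promoters of the members were searched for the core of the C/EBP-ATF element, TGATGNAA on either strand, in the 300 bases from 250 before to 50 after each gene's start (RefSeq, GRCh38.p14). Promoters were matched for 33 members. LARS1, VARS1, YARS1, AARS2, VARS2 and TARS3 had none matched. For the 11 members with several starts in the promoter table, the first listed was used. The motif was found in 6 of 16 cytosolic synthetase promoters, in 1 of 14 mitochondrial ones and in none of the 3 scaffold gene promoters. Among genes above the minimum CPM, it was found in 176 of 10909 promoters (1.61%), and among all promoters in 1003 of 27305 (3.67%). Counting any listed start, a choice made after seeing the data, GARS1 was added, for 7 of 16 cytosolic genes against 294 of the 10909 (2.70%). The 7 members with a match are shown in the direction of the gene, 30 bases each, with the motif or its reverse complement in capitals.
AARS1, chr16:70289675-70289704, minus strand: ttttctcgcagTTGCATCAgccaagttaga
CARS1, chr11:3057407-3057436, minus strand: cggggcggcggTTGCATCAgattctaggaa
IARS1, chr9:92293692-92293721, minus strand: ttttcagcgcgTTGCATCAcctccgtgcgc
MARS1, chr12:57488053-57488082, plus strand: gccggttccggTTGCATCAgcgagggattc
NARS1, chr18:57621804-57621833, minus strand: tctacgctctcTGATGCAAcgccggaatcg
TARS1, chr5:33440956-33440985, plus strand: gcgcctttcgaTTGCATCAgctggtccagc
YARS2, chr12:32756076-32756105, minus strand: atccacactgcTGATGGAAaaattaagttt
Relative to the start around which the promoter was taken, counted as 1, the capitals began at -187 for AARS1, -13 for IARS1, -4 for MARS1, -2 for CARS1, 3 for TARS1, 15 for NARS1 and -197 for YARS2. For TARS1 that start lies downstream of the first base annotated for the gene, and for the other 6 both are the same base. The 6 cytosolic genes, for alanine, cysteine, isoleucine, methionine, asparagine and threonine, all carried the same 8 letters, and YARS2, for tyrosine in the mitochondria, carried another form of the motif.

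Depth was 19609933 estimated counts for the control and 1809193 for the tRF library. Members had between 73 and 36624 control counts and between 10 and 1676 in the tRF library, so the intervals of weakly expressed mitochondrial members are wide. Over all 13750 genes above the minimum CPM, the log2 ratio of scaled counts (tRF-3004b over control) fell with transcript length, from a median of 0.69 in the shortest decile to -0.37 in the longest. Of the cell line markers examined, NEFL had 1950 and 94 counts (control, then tRF-3004b), NEFM 214 and 24, PAX2 19 and 2, and LHX1 61 and 0. On scaled counts, NEFL had a log2 ratio of -0.81, and the intervals of NEFL and LHX1 lay below 0. NEFM and PAX2 had log2 ratios of 0.40 and 0.29, with intervals that held 0. Markers of fibroblasts (5 of 5 genes), epithelium (4 of 4) and blood cells (5 of 5) were higher in the tRF library. They summed to 94.0, 35.8 and 30.6 CPM against 9.20, 10.2 and 3.18 CPM in the control library, with none at 0 in either library. For the epithelial marker EPCAM, with 68 and 10 counts, the interval (-0.33 to 1.76) held 0. Some others rested on few counts, as KRT13 with 2 and 7. The part of these markers in the results below was not tested.

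Levels per transcript length are given as TPM (transcript abundance per base of length, scaled to a fixed total). The cytosolic set summed to 5441 TPM in the control library and 3149 TPM in the tRF library, and the mitochondrial set to 916 and 657 TPM. In the control library the order was led by IARS1, the isoleucine enzyme, at 927 TPM, GARS1 (glycine) at 666 TPM, EPRS1, which carries the glutamate and proline activities in 1 protein, at 622 TPM, and TARS1 (threonine) at 447 TPM. IARS2, the mitochondrial isoleucine enzyme, followed at 446 TPM and alone made up 48.7% of the mitochondrial TPM. The lowest members were SARS2 (mitochondrial serine) at 4.54 TPM, VARS2 at 6.08 TPM and AARS2 (mitochondrial alanine) at 7.31 TPM. In the tRF library the scaffold gene EEF1E1 stood first at 646 TPM, above TARS1 at 389 TPM and IARS1 at 380 TPM.

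**Figure D1:**
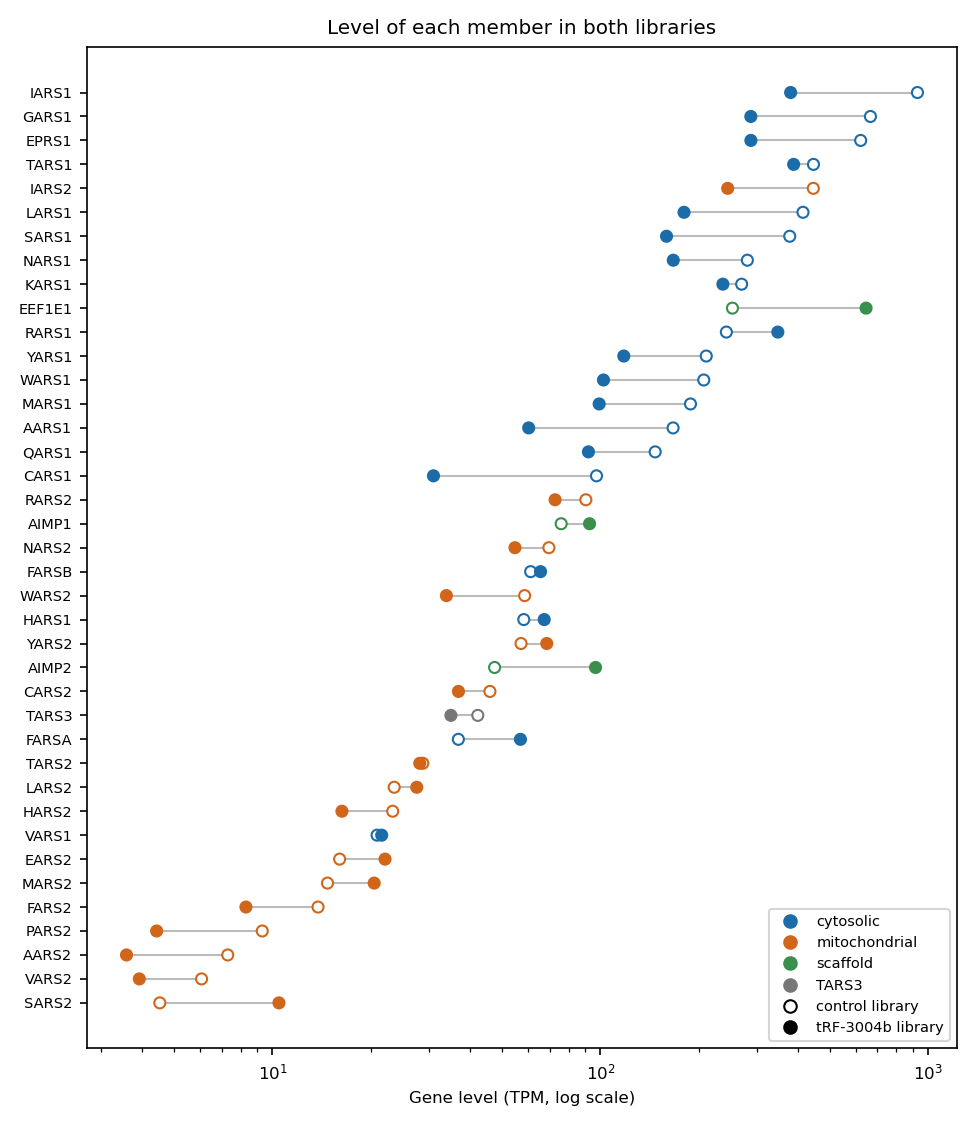
Gene level of the 39 members in TPM (log scale), open circles for the control library and filled circles for the tRF library, coloured by set. IARS1 led the control library at 927 TPM and EEF1E1 the tRF library at 646 TPM, while SARS2 was lowest in the control library at 4.54 TPM.

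On log2(TPM + 1) the median gene was lower by 0.38 in the tRF library, against a median of -0.03 on scaled counts. Differences are therefore given below as log2 ratios of scaled counts, and a TPM that is slightly lower in the tRF library can go with a ratio near or above 0.

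The cytosolic synthetases split into a lower and a higher group. With the scaling used here, 12 of 19 genes had an interval below 0 and 7 an interval above 0, and no interval held 0. Scaled by total counts, the log2 ratios of KARS1 and TARS1 were 0.11 and 0.09 in place of 0.23 and 0.21. Intervals were not computed for that scaling, but a library scaling moves a ratio and its interval alike. The shift exceeds the lower ends of the KARS1 and TARS1 intervals, 0.09 and 0.11. With total counts both would therefore hold 0, as would that of the mitochondrial gene TARS2. Interval counts here and below are for the scaling used. Among all genes tested, 25.3% had an interval below 0 and 25.5% above it, and among those at a mean CPM of 10 or more 32.3% and 29.9%. All cytosolic members lay well above that cut, the lowest being FARSA at a mean CPM of 41.6. Deeper counts narrow the intervals, so neither share is a background of like depth. Past 2-fold, 2 of the 19 were lower and 1 was higher, against 12.7% and 13.6% of all genes. At a mean CPM of 5 or more, which leaves out weakly counted genes, 922 of 10305 genes were lower and 844 higher. Whether large differences were more or less common in the set was not tested. The median log2 ratio was -0.42, with a range from -1.24 to 1.04. Summed over the set, the level was 7692 CPM (control) and 5555 CPM (tRF), for a log2 ratio of -0.47 (interval -0.50 to -0.44).

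The lower group was led by enzymes for cysteine and alanine. CARS1, the cysteine enzyme (chromosome 11, 3000929 to 3057423, GRCh38), had 97.4 TPM in the control library and 31.0 TPM in the tRF library, from 2088 and 75 counts. Its log2 ratio was -1.24 (interval -1.59 to -0.91), a level 2.36-fold lower. AARS1, the alanine enzyme (chromosome 16, 70252298 to 70289506), had 167 and 60.5 TPM and was 2.07-fold lower, at a log2 ratio of -1.05 (interval -1.26 to -0.85). The intervals of CARS1 and AARS1 overlapped, so their order is uncertain.

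Several of the more abundant members followed closely, though not TARS1, which is given below. IARS1 went from 927 to 380 TPM, with a log2 ratio of -0.89 (interval -0.96 to -0.82). SARS1 (serine), at 378 and 159 TPM, and GARS1, at 666 and 288 TPM, had log2 ratios of -0.81 and -0.80. LARS1, the leucine enzyme, known also for signalling leucine to mTORC1, had 415 and 180 TPM and a log2 ratio of -0.79 (interval -0.89 to -0.69). These 4 genes lay within 0.10 of each other on the log2 scale, and their intervals overlapped. EPRS1, at 622 and 288 TPM, had a log2 ratio of -0.70 (interval -0.78 to -0.62).

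WARS1, the interferon-inducible tryptophan enzyme, had 207 and 102 TPM and a log2 ratio of -0.62 (interval -0.81 to -0.44). MARS1 (methionine) had a log2 ratio of -0.51, YARS1 (tyrosine) of -0.42, NARS1 (asparagine) of -0.34 and QARS1 (glutamine) of -0.26 (interval -0.47 to -0.07). QARS1, at 147 and 92.0 TPM, had the smallest difference of the lower group.

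On scaled counts, the higher group was led by FARSA and RARS1. FARSA, the alpha subunit of the phenylalanine enzyme (chromosome 19, 12922479 to 12933711), had 36.9 TPM in the control library and 57.1 TPM in the tRF library, from 556 and 97 counts, a log2 ratio of 1.04 (interval 0.71 to 1.35). Its partner FARSB, the beta subunit, had 61.3 and 65.7 TPM and a log2 ratio of 0.52. Its interval (0.37 to 0.66) did not overlap that of FARSA. With the median of genes of like length subtracted, the order of the subunits was turned, with FARSA at 0.68 and FARSB at 0.80. With coding transcripts only, and no such subtraction, FARSA stood at 1.04 and FARSB at 0.24. RARS1, the arginine enzyme (chromosome 5, 168486471 to 168519301), had 242 and 348 TPM and a log2 ratio of 0.93 (interval 0.82 to 1.05). Among cytosolic members, RARS1, FARSA, FARSB, HARS1 and VARS1 had the higher TPM in the tRF library. HARS1 (histidine) had a log2 ratio of 0.61 and VARS1 (valine), which binds elongation factor 1, of 0.46 (interval 0.12 to 0.78).

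KARS1 (lysine) and TARS1 had small positive log2 ratios of 0.23 (interval 0.09 to 0.37) and 0.21 (interval 0.11 to 0.30). On log2(TPM + 1) they stood at -0.19 and -0.20, below 0 but above the median gene at -0.38. TARS3, a paralogue of TARS1, had 42.3 and 35.0 TPM and a log2 ratio of 0.14, with an interval from -0.14 to 0.41 that held 0.

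**Figure D2:**
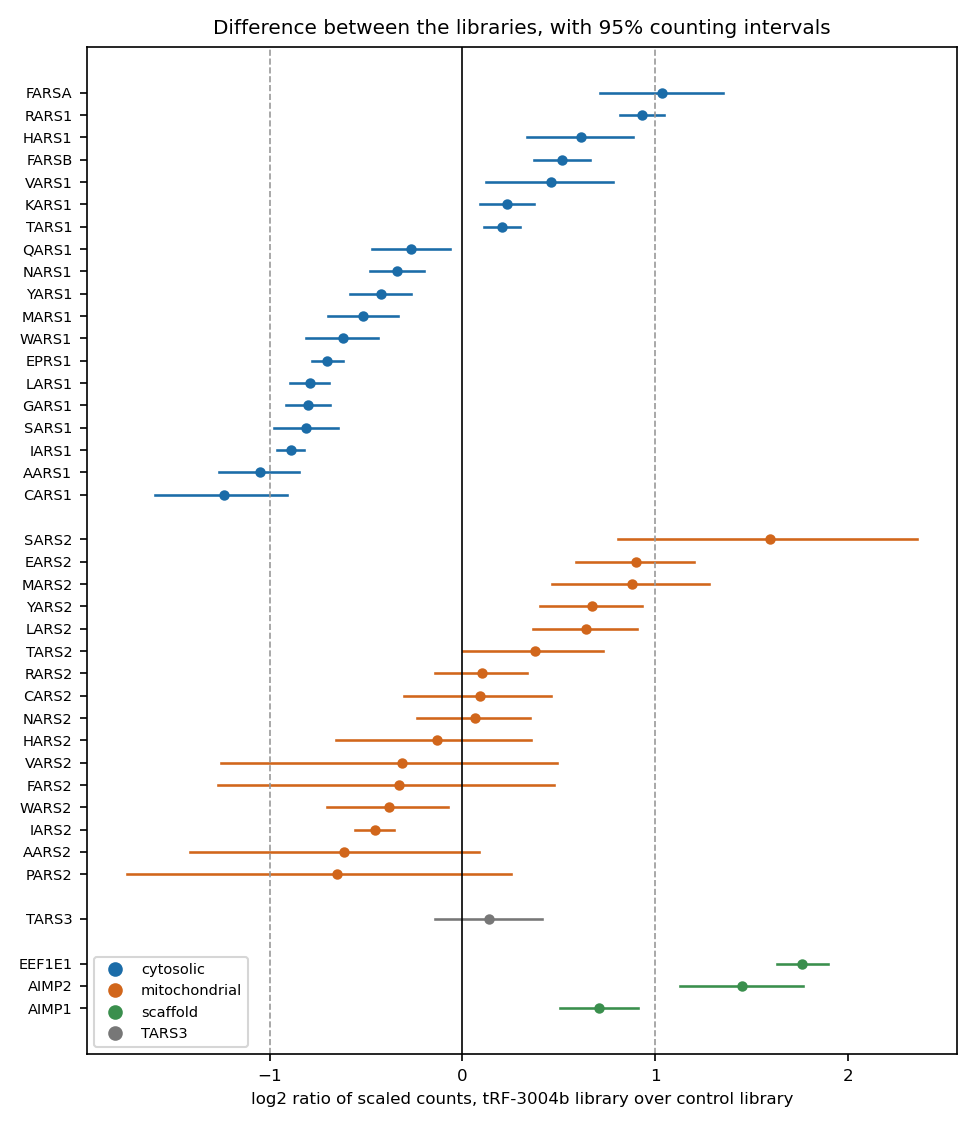
log2 ratio of scaled counts, tRF library over control library, for each member (points) with its 95% counting interval (lines), ordered within each set, with dashed lines at 2-fold. Cytosolic genes run from CARS1 at -1.24 to FARSA at 1.04 with no interval across 0 at the scaling used, and the 3 scaffold genes lie above 0.

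The lower group held most of the known ATF4 targets among these genes. Of the 12 cytosolic synthetase genes listed as known targets of the amino acid response (AARS1, CARS1, EPRS1, GARS1, IARS1, LARS1, MARS1, NARS1, SARS1, TARS1, WARS1 and YARS1), 11 had an interval below 0 and TARS1 was above 0. Of the other 7 (FARSA, FARSB, HARS1, KARS1, QARS1, RARS1 and VARS1), 6 had an interval above 0 and QARS1 was below it. Over all genes tested these shares were 25.3% below and 25.5% above 0, and at a mean CPM of 10 or more 32.3% and 29.9%, neither a background of like depth. The medians were -0.75 and 0.52, beside -0.03 for all genes tested. This list was written with the values of many of these genes known, so the division is a description. The 12 had 6812 CPM together in the control and 4323 CPM in the tRF library (log2 ratio -0.66), and the other 7 to 879 and 1231 CPM (log2 ratio 0.49). The promoter motif was found in 6 of 10 listed genes with a promoter and in none of 6 others, but genes are known as ATF4 targets partly through this motif. Among cytosolic genes with a promoter, the median log2 ratio was -0.70 with the motif and -0.02 without it. Over the 10909 genes tested that had a promoter, the corresponding medians were -0.09 (176 genes, 101 of them lower) and -0.03. Counting any listed start, the medians with and without the motif were -0.80 and 0.23 for cytosolic genes, and -0.24 and -0.03 for the 10909. All cytosolic genes with the motif were on the list, so this contrast largely repeats the division by list. Among the 10 listed genes with a promoter, the medians with and without the motif at any start were -0.80 and -0.70. TARS1, with the motif, was not lower. ATF4 itself stood at a log2 ratio of -0.48, from 7595 and 463 counts (interval -0.62 to -0.34). EIF2AK4 (GCN2), the kinase that senses uncharged tRNA upstream of ATF4, stood at a log2 ratio of -0.83, from 2101 and 100 counts (interval -1.14 to -0.54).

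The mitochondrial synthetases showed no common direction. Of 16 genes, 6 had an interval above 0, 2 an interval below 0, and 8 intervals held 0, where 25.5% of all genes tested had an interval above 0 and 25.3% below it. Past 2-fold, 1 of the 16 was higher and none was lower, against 13.6% and 12.7% of all genes. The median log2 ratio was 0.08, and its sign was not stable, at -0.04 with total counts, -0.07 after subtraction of the median of genes of like length and -0.32 on log2(TPM + 1), where the median of all genes was -0.38. Summed over the set, the level was 1167 CPM (control) and 1085 CPM (tRF), for a log2 ratio of -0.11 (interval -0.17 to -0.04). Without IARS2 the sum was 500 CPM and 599 CPM, for a log2 ratio of 0.26 (interval 0.17 to 0.35), so 1 gene set the direction of the sum.

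Among the higher mitochondrial genes, SARS2 (chromosome 19, 38915266 to 38930763) had 4.54 TPM in the control library and 10.5 TPM in the tRF library, from 73 and 19 counts. Its log2 ratio of 1.59 had a wide interval, from 0.81 to 2.36. EARS2, which charges both the glutamate and the glutamine tRNA of mitochondria, had 16.0 and 22.1 TPM and a log2 ratio of 0.90 (interval 0.59 to 1.20). MARS2 (methionine), at 14.7 and 20.4 TPM, had a log2 ratio of 0.88. YARS2 (tyrosine) and LARS2 (leucine) had log2 ratios of 0.67 and 0.64, with intervals from 0.40 to 0.93 and from 0.36 to 0.91. The sixth was TARS2 (threonine), whose interval around 0.37 began at 0.004 and whose TPM, 28.7 and 28.1, barely differed. These intervals overlapped in every pair but SARS2 and TARS2.

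IARS2, with 446 and 245 TPM, had a log2 ratio of -0.46 (interval -0.56 to -0.36), and WARS2 (tryptophan), with 58.8 and 33.9 TPM, of -0.38 (interval -0.70 to -0.08). The intervals of RARS2, CARS2, NARS2, HARS2, VARS2, FARS2, AARS2 and PARS2 held 0, around log2 ratios from -0.65 for PARS2 (proline, 186 and 10 counts) to 0.10 for RARS2 (arginine). For the last 4 of these, with 10 to 17 counts in the tRF library, the interval reached past 2-fold lower. VARS2 shares 21.1% of its 31-base words with the neighbouring gene GTF2H4, and both together stood at -0.29 (interval -1.02 to 0.36).

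The difference of medians, mitochondrial minus cytosolic, was 0.50 on the log2 scale, 0.66 among the 10 mitochondrial and 19 cytosolic genes with at least 50 counts in the tRF library, and 0.33 with the length trend removed. Set side by side by amino acid, 17 pairs could be formed, in which EPRS1 is paired with EARS2 and with PARS2, and FARS2 with both FARSA and FARSB. The mitochondrial enzyme had the higher log2 ratio in 12 pairs and the lower in 5. The counting intervals were apart in 9 pairs, with the mitochondrial enzyme above in 7 (cysteine, glutamate, isoleucine, leucine, methionine, serine and tyrosine) and below in 2 (arginine, and phenylalanine against FARSA). Among these 7 pairs, the log2 ratios were -0.81 for SARS1 against 1.59 for SARS2, -0.79 for LARS1 against 0.64 for LARS2, and -1.24 for CARS1 against 0.09 for CARS2. For arginine the order was turned, with RARS1 at 0.93 and RARS2 at 0.10. How often the intervals of 2 unrelated genes lie apart was not computed. Over all genes tested, 25.5% had an interval above 0 and 25.3% below it, but these shares do not give that frequency. In the control library the cytosolic enzyme had the higher TPM in all 17 pairs, from 2.08 times for isoleucine to 83.4 times for serine. In the tRF library this held in 16, the exception being cysteine, with CARS1 at 31.0 TPM and CARS2 at 36.9 TPM.

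**Figure D3:**
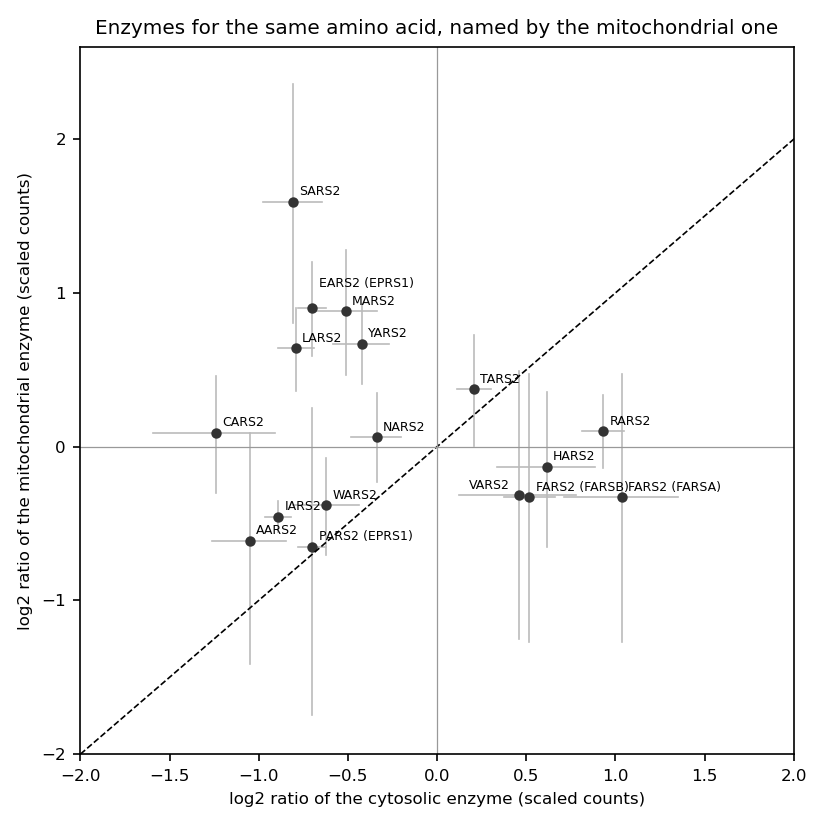
log2 ratio of the mitochondrial enzyme (vertical axis) against that of the cytosolic enzyme for the same amino acid (horizontal axis), both from scaled counts with 95% counting intervals, and the line of equality dashed. Serine, glutamate, methionine, leucine and tyrosine pairs lie in the upper left, with the cytosolic enzyme below 0 and the mitochondrial enzyme above 0.

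The scaffold genes were higher in the tRF library. EEF1E1 (AIMP3; chromosome 6, 8073360 to 8102548) had 253 TPM in the control library and 646 TPM in the tRF library, from 2067 and 596 counts, a level 3.40-fold higher, at a log2 ratio of 1.76 (interval 1.63 to 1.90). The readthrough gene EEF1E1-BLOC1S5 shares its sequence and had 0 and 12 counts, and the sum of both had a log2 ratio of 1.79. AIMP2 (chromosome 7, 6009272 to 6023834) had 47.6 and 96.7 TPM and was 2.73-fold higher, with a log2 ratio of 1.45 (interval 1.13 to 1.77). AIMP1 had 76.0 and 92.7 TPM and a log2 ratio of 0.71 (interval 0.51 to 0.91). EEF1E1 and AIMP2 have short transcripts of 1046 and 1178 bases, in the decile of genes whose median log2 ratio was 0.69. With that median subtracted, EEF1E1 stood at 1.07 and AIMP2 at 0.76.

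Within the multisynthetase complex the members listed here went both ways, 5 with an interval above 0 and 5 below. Over all genes tested, which are not of like depth, these shares were 25.5% and 25.3% (29.9% and 32.3% at a mean CPM of 10 or more). The scaffold genes, RARS1 and KARS1 were above 0, and IARS1, LARS1, EPRS1, MARS1 and QARS1 below. AIMP1 and RARS1, whose products are known to bind each other, had log2 ratios of 0.71 and 0.93. In the control library EEF1E1 had a lower TPM than IARS1, EPRS1, LARS1 and KARS1, and in the tRF library a higher TPM than each of them. By structural class, the 18 class I enzymes had a median log2 ratio of -0.29 and the 17 class II enzymes of 0.06. EPRS1, whose glutamate and proline activities fall in different classes, was left out of both, and TARS3 was counted in class II. Both classes spanned 0, from -1.24 to 0.93 and from -1.05 to 1.59.

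The members were also set against genes of like transcript length. Across genes, which are not independent replicates, Spearman's rho of length and log2 ratio was -0.35 over the 19 cytosolic and -0.06 over the 16 mitochondrial genes, and -0.30 over all genes tested. Whether the sets differ in this was not tested. FARSB, with the longest transcript at 6822 bases, EARS2 at 4835 and LARS2 at 4781 had log2 ratios of 0.52, 0.90 and 0.64, where genes of like length had medians of -0.29, -0.25 and -0.25. EPRS1 and LARS1, of 4862 and 4760 bases, stood at -0.45 and -0.54 after subtraction of their decile's median. SARS1, at 2124 bases, and CARS1, at 2523, lay below genes of like length by 0.95 and 1.34.

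**Figure D4:**
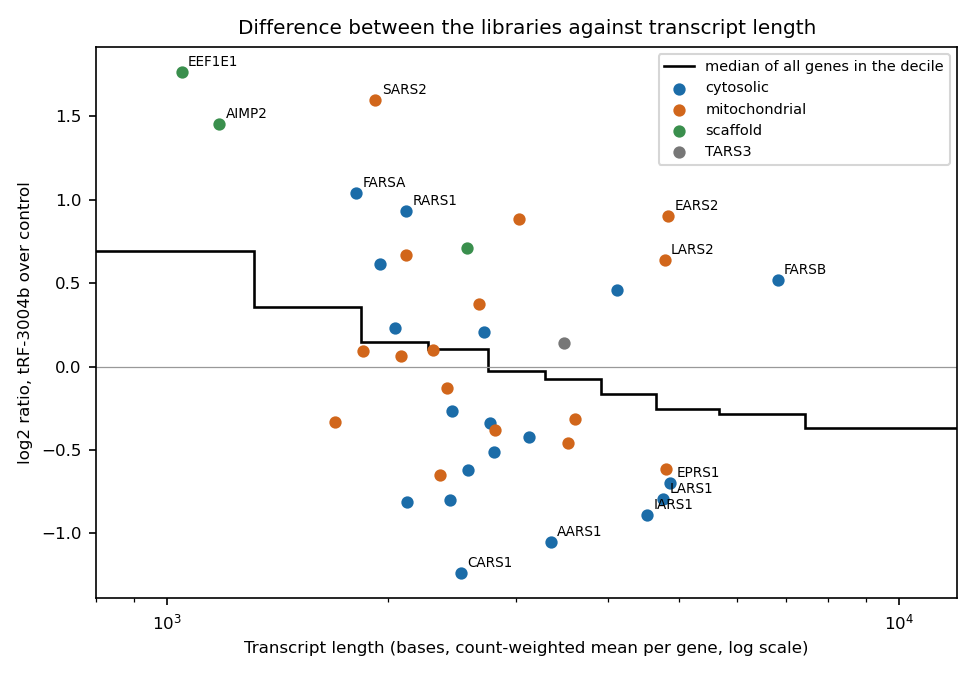
log2 ratio of each member (points, coloured by set) against transcript length in bases on a log scale, with the median of all genes in each decile of length as a step line. FARSB, EARS2 and LARS2 lie above the line for long transcripts, and CARS1 and AARS1 lie below the line at their length.

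Transcripts of a gene share sequence, so the split between them is an estimate, less certain than the gene's sum. It is given for the 5 genes with at least 200 counts in the tRF library and at least 2 transcripts that each held 10% of the control counts. This rule was chosen after the values were seen. KARS1 makes its cytosolic and mitochondrial enzymes from alternatively spliced transcripts. The transcript of the mitochondrial form (NM_001130089) held 17.1% of the gene's control counts and 26.5% of its counts in the tRF library, with a log2 ratio of 0.87 (interval 0.58 to 1.14). The cytosolic form (NM_005548) had a log2 ratio of 0.06 (interval -0.10 to 0.22), so the higher KARS1 sum came with the mitochondrial form.

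IARS1 had 3 main transcripts that moved apart. NM_002161, with 64.8% of control counts and 34.0% of counts in the tRF library, had a log2 ratio of -1.82 (interval -1.94 to -1.70). NM_013417 was at -1.35, whereas NM_001374301 went from 16.4% to 45.4% with a log2 ratio of 0.58 (interval 0.47 to 0.69). For FARSB, the non-coding transcript NR_130154 held 29.9% and 42.1% of the counts and had a log2 ratio of 1.01, and the coding NM_005687 one of 0.24 (interval 0.05 to 0.42). In WARS1, NM_004184 held 31.4% of the control counts and had an estimated count of 0.0245 in the tRF library, while the other 3 transcripts had log2 ratios from -0.16 to -0.03. NM_004184 and NM_173701 have lengths of 2639 and 2642 bases, and how their reads were divided is uncertain. SARS1 kept a similar division, with its non-coding NR_034072 at 16.1% and 20.1%.

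**Figure D5:**
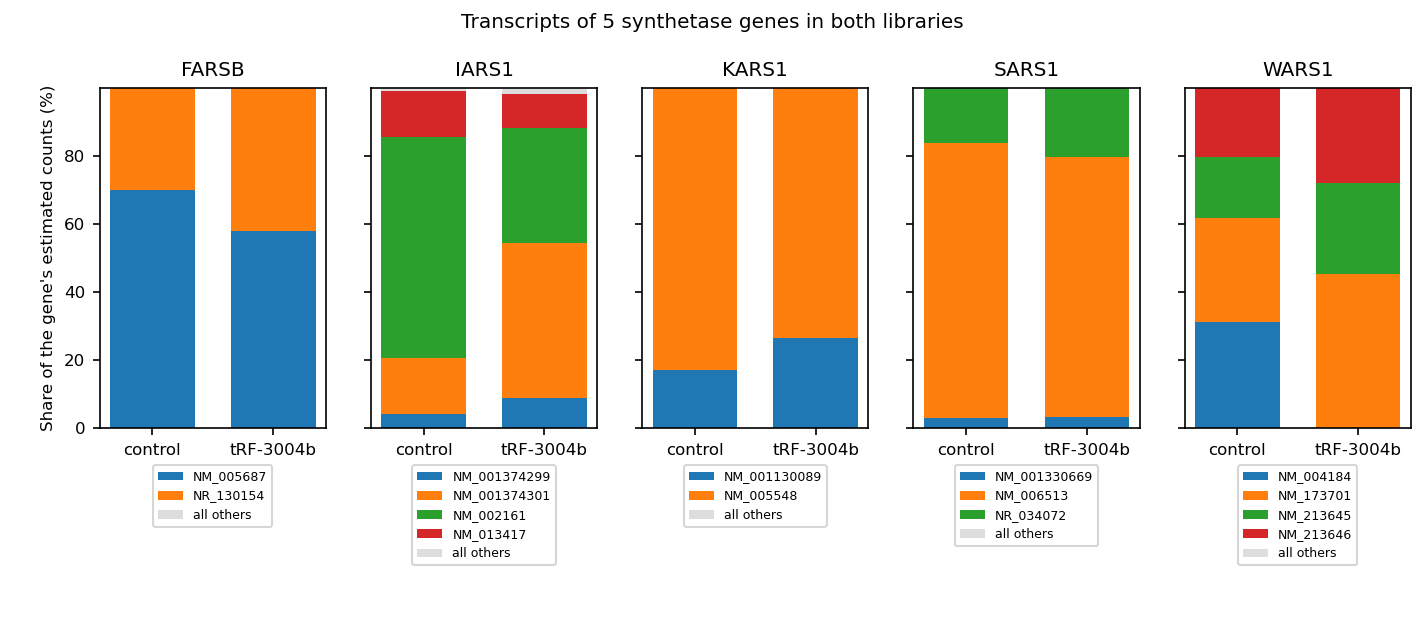
Share of each gene's estimated counts (%) held by its RefSeq transcripts in the control and tRF-3004b libraries, for FARSB, IARS1, KARS1, SARS1 and WARS1, with transcripts under 3% in both libraries in grey. The share of NM_001374301 in IARS1 went from 16.4% to 45.4%, and that of the mitochondrial form of KARS1 from 17.1% to 26.5%.

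Other genes of aminoacylation and of the use of charged tRNAs had a median log2 ratio of 0.04. Of 14 genes, 4 had an interval above 0 and 3 below, against 25.5% and 25.3% of all genes. The highest were TSFM, a mitochondrial elongation factor, at 0.44 (interval 0.03 to 0.83; 521 and 60 counts) and QRSL1, a subunit of the amidotransferase that completes glutaminyl-tRNA in mitochondria, at 0.44 (interval 0.16 to 0.70; 1104 and 127 counts). The lowest were SEPSECS, which makes selenocysteinyl-tRNA, at -1.66 (interval -2.46 to -0.98; 638 and 17 counts) and XPOT, the nuclear export receptor for tRNA, at -0.83 (interval -0.93 to -0.73). SEPSECS was the only gene of the 14 past 2-fold.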

How the data were processed

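Poly-A RNA of HEK293T cells was measured in 1 control and 1 tRF-3004b library. Reads were assigned with kallisto 0.46.1 and build GRCh38, per the submitters' processing notes. Trimming, strand setting and annotation release are not given in the sources used. The authors deposited estimated counts, TPM values and lengths in bases for 70866 RefSeq transcripts, per the file headers. Estimated counts are divided among transcripts that share sequence, and TPM keeps no depth.

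Both values were summed per gene symbol (RefSeq table, 70245 transcripts, and GENCODE release 29, 293; 328 stayed unnamed, with 0.0723% of control and 0.0713% of tRF-3004b counts), and counts were rounded. Libraries were scaled with edgeR 4.0.16 TMM factors (1.04 and 0.959) over the 13750 genes at a mean CPM of 1 or more. No test was run with 1 library per group. The log2 ratio adds 0.5 counts, and its 95% interval (conditional Clopper-Pearson, exact) adds none. Reads are not independent molecules, so intervals cover counting error only. The computations were tested on simulated counts. Length is the count-weighted mean over transcripts. Shared 31-base words were searched in GENCODE transcripts. All 39 members are named, with the 2 highest and 2 lowest of 14 partner genes, ATF4 and EIF2AK4. Members and lists were chosen with earlier results of these data known. The seed search was added after the data were seen. The alternatives tried were scaling by total counts or by DESeq2 1.42.0, gene TPM with 1 added, a pseudocount of 5, coding transcripts only, removal of the length trend and other filters.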

Additional observations from a re-analysis of the deposited data

How the results depend on the processing

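The difference of medians, mitochondrial minus cytosolic, ran from 0.33 to 0.66 over the 11 alternatives run. Several of them could not change it and left it at 0.50. Another library scaling shifts both medians alike, and the other CPM filters removed no member. With gene TPM and 1 added, medians moved to -0.83 for cytosolic, -1.16 for listed ATF4 targets and -0.60 for class I synthetases, with 8 cytosolic genes at least 2-fold lower and 0 higher, and KARS1, TARS1 and TARS2, whose intervals lay above 0, turned to -0.19, -0.20 and -0.0297. RARS2, CARS2, NARS2 and TARS3, whose intervals held 0, stood at -0.31, -0.31, -0.34 and -0.27, and the mitochondrial median at -0.32. The median of all genes moved by the same setting to -0.38 and, with total counts, to -0.16. The summed log2 ratio of the cytosolic set was -0.79 with gene TPM, -0.59 with total counts and -0.54 with TMM over all genes, and that of the mitochondrial set was -0.48, -0.23 and -0.18. Without IARS2 the mitochondrial sum turned to 0.26. The count of cytosolic genes at least 2-fold higher was 0 with total counts, TMM over all genes or the length trend removed, and of those lower 1 with the length trend removed. The count of mitochondrial genes at least 2-fold higher was 2 with the length trend removed or coding transcripts only. Beyond these settings' construction, the cause was not tested. TMM over all genes, the set without IARS2, the set without GARS1 and KARS1 and the minimum of 50 counts were chosen after seeing the data. No paired analysis was possible because each group has 1 library. Depth limits the mitochondrial members most, with 10 counts for PARS2 in the tRF-3004b library.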
